A study of Mus musculus with 15 samples.

Results

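Testes of adult DBA/2J male mice that had received injections of vehicle alone were compared with testes of untreated males by single-cell RNA sequencing of dissociated testis. The comparison held the 9 libraries titled Vehicle-Treated (VC-T, n = 3), Vehicle-Recovery (VC-R, n = 3) or Untreated (UC, n = 3), out of 15 libraries in the series. The other 6 libraries came from males given JQ1, an inhibitor of the BET family of bromodomain proteins, and are used below only where stated. These males were injected each day for 3 weeks with JQ1 in the same vehicle. For 3 of these libraries (T) the testis was taken directly after the course, at 10 weeks of age. For the other 3 (R, recovery from JQ1) it was taken 6 weeks after the last injection, at 16 weeks. Cells were kept when they had at least 500 detected genes, at least 1000 unique molecular identifiers (UMIs, counts of captured RNA molecules) and under 30% of UMIs from mitochondrial genes, and the 5.4% of those with the highest doublet scores in each library were removed. This left 33930 cells in the 9 libraries of 72362 in all 15.

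UC males were 15 weeks old and had no injections. VC-T males were injected intraperitoneally each day for 3 weeks with DMSO diluted in a hydroxypropyl-β-cyclodextrin solution, and the testis was taken at the end of the course, at 10 weeks of age. VC-R males had the same course and were sampled 6 weeks after its last injection, at 16 weeks. Each library held cells of 1 testis from 1 mouse, so the p-values below measure the spread between mice within a group. Where VC-T and VC-R were pooled as vehicle, that spread also holds their differences in age and in time since injection. The solvent, the cyclodextrin and the handling that goes with injection differed together between vehicle and untreated males and cannot be told apart, and in VC-T males the younger age cannot be told apart from them either. The paper lists additional age-matched control males, 15 weeks among their ages, as obtained from Jackson Laboratory. Shipment and time in the animal house may thus also differ between untreated and injected males, and cannot be told apart from the injections. The study used the untreated males as baseline controls, and it left the first VC-T library out of its own differential expression as an outlier.

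Spermatogenesis proceeds from mitotic spermatogonia through meiotic spermatocytes to haploid spermatids, which elongate into spermatozoa while protamines and transition proteins replace histones in their chromatin. Sertoli cells nurse these germ cells inside the seminiferous tubule. DMSO is a common solvent for drugs that dissolve poorly in water, and hydroxypropyl-β-cyclodextrin is a ring of sugars that carries greasy molecules in its cavity and can take up cholesterol from membranes. Lists of cholesterol, steroid hormone, glucocorticoid, stress and inflammation genes were therefore examined beside the germ cell genes.

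The 9 libraries held 3407 to 7080 cell barcodes and 11010746 to 28341295 UMIs each, and 2760 to 5504 cells after filtering. A cell had a median of 2455 to 3959 UMIs, depending on the library, and a mean of 0.54 to 2.05% mitochondrial UMIs. Any 2 of the 9 libraries shared 1 to 9 barcodes among the kept cells. The cells of all 15 libraries were clustered together and 34 clusters were named by fixed markers as spermatogonia-, spermatocyte-, spermatid-, spermatozoa- or Sertoli-like or as another somatic type, except 2 that stayed unnamed. The largest spermatozoa-like cluster was led by Tnp1 and Tnp2, genes of the transition proteins that act while spermatids elongate. The spermatozoa-like class may thus hold elongating spermatids as well as spermatozoa. Droplet libraries can carry free RNA from broken cells. Prm1, a sperm protamine, was counted at a mean of 3588 CPM (UMIs of a gene scaled to a common total per library and stage) in spermatogonia-like cells of the UC libraries. It was at 8901 CPM in Sertoli-like cells, where it should be absent, against 62459 CPM in spermatozoa-like cells. Free RNA, doublets and mixed cells were not told apart as its source.

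The library labelled VC-T 1 stood apart from the other 8. It held 0 spermatozoa-like cells among 5488 germ cells, which allows a share of up to 0.0547% by the limit of 3 cells, while 32.9 to 66.4% of germ cells were spermatozoa-like in the other 8 libraries. Summed over all its cells, Prm1 was at 134 CPM, against 28694 to 43983 CPM in the other vehicle and UC libraries and 60.7 to 313 CPM in the 3 libraries taken directly after JQ1. Tnp1, the gene of a transition protein, was at 298 CPM against 12050 to 17807 CPM in the other 8. Hexim1, a transcriptional regulator whose level is used as a readout of BET inhibition, was at 4.15 CPM in this library, 2.06 to 3.44 CPM in the other 8, and 6.24 to 7.63 CPM directly after JQ1. These levels are over all cells, so they also move with cell make-up. Of germ cells, 45.8% were spermatocyte-like in this library, 7.83 to 23.0% in the other 8 and 52.8 to 56.9% directly after JQ1. The part of make-up in the Hexim1 level was not tested. Over 8688 genes, the correlation of its log CPM with the 3 libraries taken directly after JQ1 was 0.978 to 0.990, with the 3 libraries of recovery from JQ1 0.745 to 0.758, and with the other vehicle and UC libraries 0.729 to 0.780, given as a description. Its label was kept, and shares, UMIs per cell and the gene tests of spermatogonia-, spermatocyte- and spermatid-like cells are given with it (6 vehicle libraries) and without it (5). It held too few spermatozoa- and Sertoli-like cells for a sum, so their gene tests, the gene lists and the comparisons of VC-R leave it out.

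The first question was whether vehicle changed the make-up of the testis. In the UC libraries 57.6 to 66.4% of germ cells were spermatozoa-like, 17.6 to 22.1% spermatid-like, 10.6 to 20.3% spermatocyte-like and 2.68 to 7.00% spermatogonia-like. In the VC-R libraries the spermatozoa-like shares were 58.2%, 62.6% and 57.5%, the spermatid-like shares 15.9%, 18.8% and 22.6% and the spermatocyte-like shares 23.0%, 13.0% and 15.6%. Cells of the unnamed clusters made up 9.23% of VC-R 1, all 441 of them in 1 cluster led by Defb36, Tnp1 and Prm1, against 1.90 to 2.36% in UC. The VC-T libraries differed widely among themselves: the spermatozoa-like share was 0% in the library labelled VC-T 1, 32.9% in VC-T 2 and 50.7% in VC-T 3. The spermatid-like shares of the same 3 libraries were 50.7%, 51.4% and 20.8%.

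Over the 6 vehicle libraries the spermatozoa-like share averaged 43.7 ± 23.8% (SD, n = 6) against 60.9 ± 4.75% in UC (n = 3), and an exact two-sided permutation test over libraries gave p = 0.214. Without the library labelled VC-T 1 the vehicle mean was 52.4 ± 11.7% (n = 5) and the exact permutation p was 0.321. The spermatid-like share averaged 30.03 ± 16.4% in the 6 vehicle libraries and 25.9 ± 14.5% in the 5, against 19.3 ± 2.42% in UC, with exact permutation p of 0.286 and 0.679. The spermatocyte-like share was 20.3 ± 13.4% over 6 vehicle libraries and 15.2 ± 5.54% over 5, against 14.7 ± 5.01% in UC. Of the 5 shares tested none passed in either comparison, with adjusted p of 0.69 over 6 libraries and 0.848 to 0.929 over 5. The smallest p the exact permutation test could reach before adjustment was 0.0119 and 0.0179. After adjustment over the 5 shares, 1 share alone could not have passed, so these tests cannot exclude a difference in a single share.

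**Figure D1:**
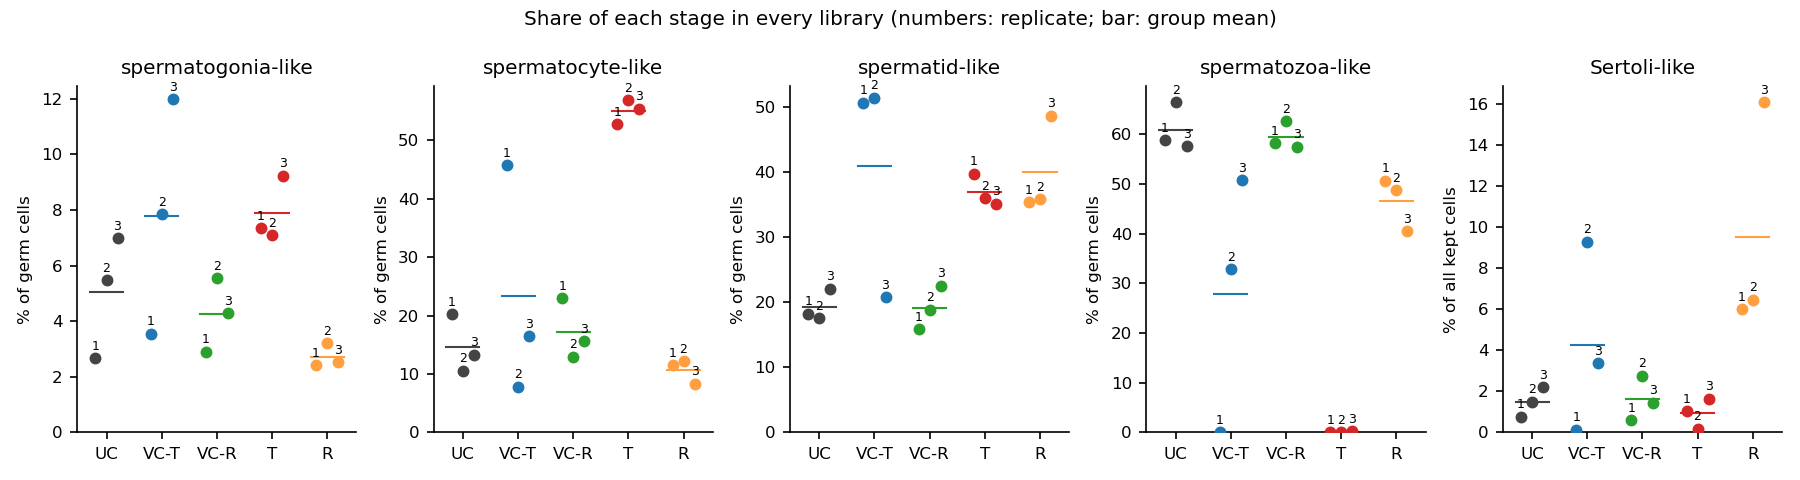
Share of germ cells in each germ cell stage, and of all kept cells that were Sertoli-like, in percent, with 1 numbered point per library and a line at the mean of each group (UC, VC-T, VC-R, and JQ1 directly after the course, T, or after recovery, R). The UC and VC-R points overlap in every germ cell stage, while the library labelled VC-T 1 has no spermatozoa-like cells and VC-T 2 has 51.4% spermatid-like cells.

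VC-T 2 carried most of what remained once the first library was set aside. Of its 1603 spermatid-like cells, 78.0% were in clusters 12, 14, 16 and 18, which held 2.48 to 25.5% of spermatid-like cells in the other vehicle and UC libraries. The profile was not particular to VC-T 2, as these clusters held 76.1, 69.9 and 83.3% in the libraries of recovery from JQ1. The clusters had medians of 1272.5 to 1669 UMIs per cell, against 2286 to 7699 in the other spermatid-like clusters. Sertoli-like cells, the somatic nurse cells, made up 9.29% of all its cells, against 0.127 to 3.38% in the other 5 vehicle libraries and 0.774 to 2.19% in UC, and 288 of its 333 Sertoli-like cells lay in 1 cluster. In the libraries of recovery from JQ1 the Sertoli-like share was 5.99, 6.46 and 16.1%. The Sertoli-like share averaged 3.50 ± 3.42% over 5 vehicle libraries and 1.49 ± 0.707% in UC (exact permutation p = 0.464). Without VC-T 2, the difference in the spermatid-like share between 5 vehicle and UC libraries went from 6.59 to 0.21 percentage points.

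RNA content per cell showed the same pattern of unequal VC-T libraries. Spermatozoa-like cells had a median of 2562, 2982 and 2907 UMIs in UC, 2386, 3337 and 2096 in VC-R, 8278 in VC-T 2 and 3076 in VC-T 3. Spermatocyte-like cells had a median of 6444, 8963 and 7218 UMIs in UC and 4876 to 11327 in VC-R, but 3158, 21284 and 7234 in the 3 VC-T libraries. In the libraries of recovery from JQ1 these medians were 15221, 11325 and 26547. No stage differed between vehicle and UC by the exact permutation test over libraries, with p of 0.5 to 0.833 over 6 vehicle libraries and 0.625 to 0.768 over 5 across the 5 stages. The differences rested on VC-T 2: over 5 vehicle libraries the difference was 1018 UMIs in spermatozoa-like and 2584 UMIs in spermatocyte-like cells, and without VC-T 2 it was −93.1 and −206 UMIs. Fewer captured molecules and less RNA per cell cannot be told apart in these counts.

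UMIs were then summed per library and stage, and a gene was called where its adjusted p was under 0.05 and its fold over 2 by edgeR's quasi-likelihood test with Benjamini-Hochberg adjustment. Over all 6 vehicle libraries no gene was called in spermatogonia-like (0 of 7778, 0%), spermatocyte-like (0 of 12157, 0%) or spermatid-like cells (0 of 12805, 0%). Unadjusted p was under 0.05 for 112, 782 and 364 genes, and DESeq2 called 0, 1 and 1 genes, which was Gm10076 in both stages. Without the library labelled VC-T 1, no gene was called in spermatogonia-like (0 of 8422, 0%), spermatocyte-like (0 of 11957, 0%), spermatid-like (0 of 12240, 0%) or Sertoli-like cells (0 of 4483, 0%), with 145, 612, 484 and 18 genes at an unadjusted p under 0.05. DESeq2 called 1 gene in spermatogonia-like cells (Zfp286os), 2 in spermatocyte-like (Gm10260 and Gm10076), 3 in spermatid-like (Gm10076, Gm16677 and 1700020N15Rik) and 0 in Sertoli-like cells. In spermatozoa-like cells 6 of 11277 genes were called (0.0532%), all higher in vehicle, and 33 genes (0.293%) had an adjusted p under 0.05 at any fold. DESeq2 called 7 there. Leaving out 1 library moved these counts: in spermatozoa-like cells 27 genes were called without VC-R 1, of which 18 were higher and 9 lower in vehicle, and 2 without UC 3, VC-T 3 or VC-R 3, which were Gm10076 with Gm10260 or, without VC-T 3, AY036118. In spermatid-like cells 4 were called without VC-R 1 (Gm10076, Gm10260, 1700020N15Rik and 4930570D08Rik), 2 without UC 2 (the haemoglobin genes Hba-a1 and Hbb-bs) and 1 without VC-T 3 (Gm10076). In spermatogonia-like cells 4 were called without VC-R 1 (Gm10076, Gm10260, Zfp286os and Hist1h2ap) and 1 without UC 1 (Zfp286os). With the 5 vehicle libraries pooled, the biological coefficient of variation between libraries of a group was 10.9% in spermatozoa-like cells and 13.8% in spermatid-like. It was 18.1% in spermatogonia-like, 21.6% in spermatocyte-like and 33.3% in Sertoli-like cells. With UC, VC-T and VC-R as separate groups the values were 10.0, 13.9, 14.6, 22.9 and 37.9% in the same order. On simulated counts, 38.75% of genes changed by a log2 fold of 1.5 were called in Sertoli-like cells and 78.5 to 98.9% in the other stages.

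The 6 genes called in spermatozoa-like cells were Slc10a2, Tec, Gm44753, Gm10260, Gm10076 and AY036118. Slc10a2, which encodes the sodium-dependent bile acid carrier of the intestine, lies at chr8:5083219-5105351 on the minus strand (mm10). Its level, in CPM scaled by edgeR's TMM factors as for all gene levels below unless stated, was 9.47, 11.0 and 8.21 in UC, 17.3 and 24.6 in VC-T 2 and 3, and 16.9, 17.1 and 21.1 in VC-R. Every vehicle library lay above every UC library, with a log2 fold change of 1.01 ± 0.16 (SE) and adjusted p = 0.00559 by edgeR. Such separation of 5 vehicle from 3 UC libraries was seen for 4.63% of all tested genes in the direction of vehicle and for 3.41% in the other. In spermatid-like cells the difference for Slc10a2 was 0.62 and was not called (adjusted p = 0.999).

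Tec, a cytoplasmic tyrosine kinase of lymphocyte signalling at chr5:72755716-72868483, was counted at low levels, 2.84, 2.71 and 3.35 CPM in UC, 5.39 and 6.83 in VC-T 2 and 3, and 6.90, 5.91 and 5.14 in VC-R (log2 fold change 1.01 ± 0.21, adjusted p = 0.0436 by edgeR). It was called in none of the 8 fits that left out 1 library. Gm44753, a long noncoding RNA gene at chr7:66441598-66444250, was at 2.65, 4.97 and 3.24 CPM in UC and 6.49 to 8.37 CPM in the 5 vehicle libraries (1.04 ± 0.21, adjusted p = 0.0372 by edgeR), and was called in 2 of the 8. Slc10a2 was called in 4 of the 8, with log2 fold changes of 0.90 to 1.15.

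AY036118 is annotated as a noncoding RNA at chr17:39847113-39848035, a stretch of the repeated ribosomal RNA sequence, so its count may come from other copies. It was at 26.5, 19.7 and 26.6 CPM in UC, 37.6 and 40.8 in VC-T 2 and 3, and 54.7, 117 and 54.4 in VC-R, so the VC-R libraries stood above the VC-T libraries and both above UC. The log2 fold change was 1.33 ± 0.28 (adjusted p = 0.0489 by edgeR), and it was called in 3 of the 8 fits that left out 1 library. In spermatogonia-like cells the same gene was at 79.1, 104 and 121 CPM in UC and 133 to 176 CPM in the 5 vehicle libraries (log2 fold change 0.56, not called).

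Gm10260 and Gm10076 are near copies of ribosomal protein genes, and were the most stable of the 6. Gm10260, at chr13:97760072-97760632 on the minus strand, matches the transcript of Rps18, a protein of the small ribosomal subunit, at 540 of 545 aligned bases. Gm10076, at chr14:105681828-105682211 on the plus strand, matches that of Rpl41, a very short protein of the large subunit, at 379 of 383. Because a read that falls where 2 copies are the same cannot be assigned to either from its sequence, the sequences are shown to mark where the copies differ. The coding part of Rps18 and its match in Gm10260 differ at 4 of 459 bases, written T186C, A337C, G371A and G431A with the Rps18 base first, counted from the first base of the start codon. The last 129 bases of the coding part lie at chr13:97760130-97760258 in Gm10260 (mm10) and hold 3 of these, in capitals:
Rps18: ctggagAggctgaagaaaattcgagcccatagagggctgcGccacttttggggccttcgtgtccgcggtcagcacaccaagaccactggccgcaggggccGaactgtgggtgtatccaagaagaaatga
Gm10260: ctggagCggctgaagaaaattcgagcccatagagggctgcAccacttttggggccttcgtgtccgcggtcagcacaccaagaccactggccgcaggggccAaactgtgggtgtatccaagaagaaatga
The 78-base coding part of Rpl41 and its match at chr14:105681869-105681946 in Gm10076 are identical, so no base of it separates the copies:
Rpl41 and Gm10076: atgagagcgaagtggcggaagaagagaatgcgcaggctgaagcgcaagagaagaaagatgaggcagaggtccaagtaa

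In spermatozoa-like cells Gm10260 was counted at 33.2, 29.8 and 36.2 CPM in UC, 74.8 and 89.5 in VC-T 2 and 3, and 46.4, 79.4 and 63.0 in VC-R. All 5 vehicle libraries lay above UC (log2 fold change 1.09 ± 0.16, adjusted p = 0.00336 by edgeR), and the gene was called in 7 of the 8 fits that left out 1 library. Rps18, its parent, was at 292, 313 and 319 CPM in UC and 227, 242, 260, 273 and 250 CPM in vehicle, so it was the lower in vehicle (log2 fold change −0.30, adjusted p = 0.16 by edgeR). Gm10076 was at 134, 165 and 189 CPM in UC, 358 and 508 in VC-T 2 and 3, and 276, 432 and 325 in VC-R (1.22 ± 0.16, adjusted p = 0.00217 by edgeR), and was called in all 8. Rpl41 was at 1752, 1933 and 2162 CPM in UC and 1578 to 2535 CPM in vehicle, with a log2 fold change of 0.01.

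**Figure D2:**
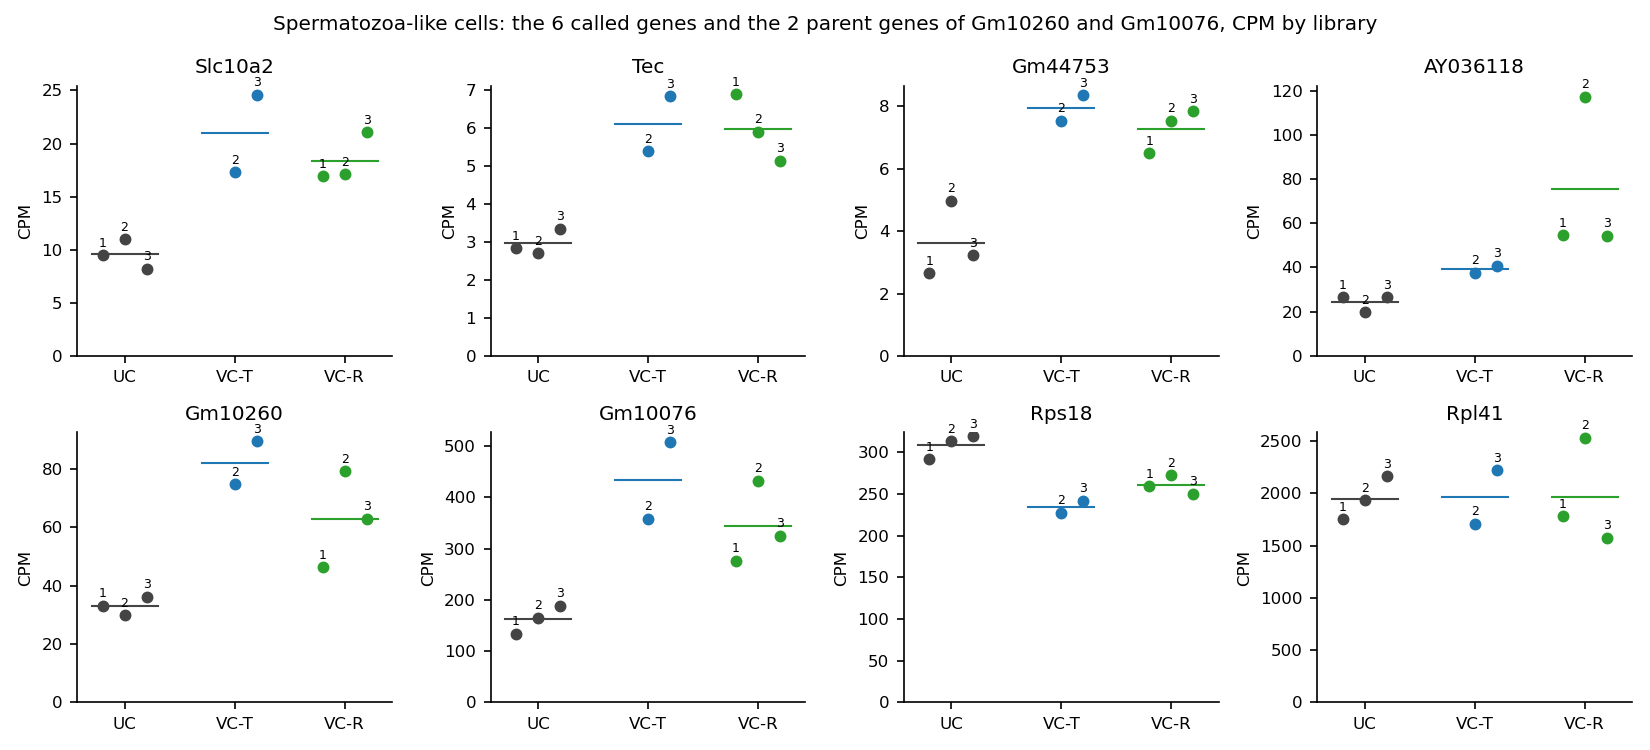
Levels in spermatozoa-like cells, in CPM on linear axes from 0, of the genes called between 5 vehicle and 3 UC libraries and of Rps18 and Rpl41, with 1 numbered point per library and a line at each group mean. All vehicle points lie above the UC points for the 6 called genes, from 46.4 to 89.5 against 29.8 to 36.2 CPM for Gm10260, while Rpl41 overlaps.

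The share of each pair's UMIs given to the copy separated vehicle from UC throughout the testis. Over all cells, Gm10260 took 9.35 to 10.5% of the Gm10260 and Rps18 UMIs in the 3 UC libraries and 15.6 to 26.6% in the 6 vehicle libraries (mean 21.1 ± 4.53%, SD, n = 6). Gm10076 took 7.40 to 8.20% of the Gm10076 and Rpl41 UMIs in UC and 12.9 to 19.6% in vehicle (16.0 ± 2.65%, n = 6). The library labelled VC-T 1 was at 16.4% and 12.9%, the latter the lowest of the 6 and still above UC. In the 6 JQ1 libraries, whose mice received the same vehicle, the shares were 13.8 to 20.4% and 12.3 to 15.9%. Both shares were higher in every vehicle library than in every UC library in spermatogonia-, spermatocyte-, spermatid- and spermatozoa-like cells, and that of Gm10260 in Sertoli-like cells too. The share of Gm10076 in Sertoli-like cells overlapped, at 9.86 to 11.4% in UC and 8.39 to 30.5% in vehicle.

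The summed level of a pair was looked at beside its copy. Gm10260 and Rps18 together came to 326 to 367 CPM in spermatozoa-like cells of UC and 307 to 325 CPM in vehicle, in CPM of the plain library sums, so the copy was higher and the sum lower in vehicle. Over all cells the sums overlapped, at 402 to 457 CPM in UC and 364 to 446 CPM in vehicle, and in Sertoli-like cells they were 348 to 373 CPM and 370 to 485 CPM. Gm10076 and Rpl41 together came to 1686 to 2076 CPM over all cells of UC and 1750 to 2544 CPM in vehicle, with overlap. How the reads that fit both copies were assigned is not given in the sources used here. These pairs were picked after the calls were seen and were not tested further. Another pair of near copies, the X-linked genes Gm6812 and 1700020N15Rik, was split nearly evenly: Gm6812 took 50.0 to 51.6% in spermatozoa-like cells of UC and 47.8 to 50.6% in vehicle, with overlap. Over all cells Gm6812 took 50.3 to 51.0% in UC and 43.0 to 49.9% in vehicle, so this pair also separated the groups without overlap. Of Gm3417 and Tcte3, Gm3417 took 82.1 to 88.9% over all cells of UC and 86.9 to 93.6% in vehicle, with overlap.

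**Figure D3:**
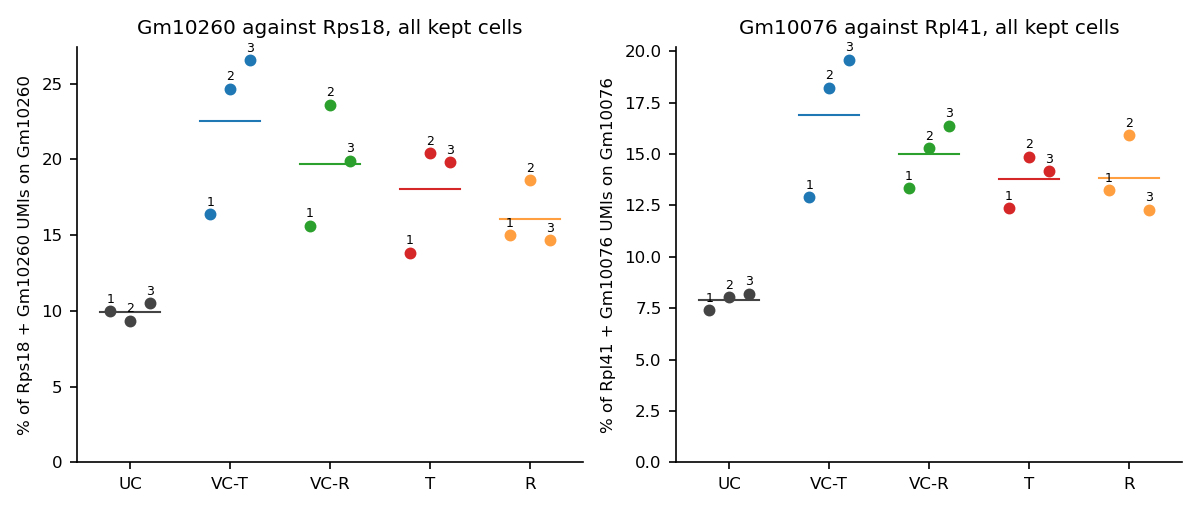
Percent of the UMIs of a pair of near copies that were assigned to the copy, over all cells, with 1 numbered point per library for UC, VC-T, VC-R and the JQ1 libraries (T and R) and a line at each group mean. Gm10260 lies at 9.35 to 10.5% in UC and 15.6 to 26.6% in vehicle, and Gm10076 at 7.40 to 8.20% and 12.9 to 19.6%.

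In the other stages neither copy was called by edgeR. In spermatogonia-like cells Gm10260 was at 79.1, 111 and 133 CPM in UC and 136 to 400 CPM in vehicle (log2 fold change 1.29, adjusted p = 1 by edgeR). In spermatocyte-like cells the log2 fold changes of Gm10260 and Gm10076 were 1.00 and 1.19 (adjusted p = 0.864 for both by edgeR), and DESeq2 called both. In spermatid-like cells they were 0.91 and 1.27, and DESeq2 called Gm10076. In Sertoli-like cells they were 1.45 and 1.54, neither called.

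Some genes past the adjusted p but under the 2-fold limit in spermatozoa-like cells are named here after their values were seen. Rps29, a protein of the small subunit, was at 597, 523 and 621 CPM in UC and 786, 1206, 958, 919 and 830 CPM in vehicle (log2 fold change 0.70, adjusted p = 0.0145 by edgeR). Rps27, Rpl38 and Rpl35 had log2 fold changes of 0.75, 0.63 and 0.69. On the X chromosome, 1700020N15Rik was at 138, 127 and 116 CPM in UC and 199 to 302 CPM in vehicle (0.91, adjusted p = 0.00217 by edgeR), its near copy Gm6812 had a log2 fold change of 0.83 and is not a separate observation, and Slxl1, of a family of X-linked spermatid genes, 0.71. Rbfox3, an RNA splicing factor best known as the neuronal marker NeuN, was at 29.6, 31.4 and 34.7 CPM in UC and 47.0 to 74.5 CPM in vehicle (0.89, adjusted p = 0.00336 by edgeR). Tuba1c, an α-tubulin, was lower in vehicle, at 60.8, 63.9 and 49.7 CPM in UC and 28.7 to 46.0 CPM in vehicle (−0.65, adjusted p = 0.0372 by edgeR). When 1 library was left out the adjusted p by edgeR rose as far as 0.261 for Tuba1c, 0.229 for Slxl1, 0.181 for Rpl35, 0.166 for Rpl38, 0.164 for Rps27, 0.135 for Rps29 and 0.117 for Gm6812, but no further than 0.0479 for Rbfox3 and 1700020N15Rik.

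The ribosomal protein genes as a group were looked at after these values were seen. In spermatozoa-like cells 48 of 70 tested members had a positive log2 fold change and their median was 0.08, where the median of all 11277 genes was −0.01. Genes with a transcript under 500 bases had a median log2 fold change of 0.17 in spermatozoa-like cells, with 72.6% of 702 genes positive, against −0.02 with 46.6% of 251 genes positive for transcripts of 5000 bases and over. The same bin had a median of 0.12 in spermatid-like, 0.09 in spermatogonia-like and 0.15 in Sertoli-like cells, but 0.00 in spermatocyte-like cells. Length of transcript is thus a property that moves with the difference in 4 of 5 stages. Its part in any call was not tested.

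**Figure D4:**
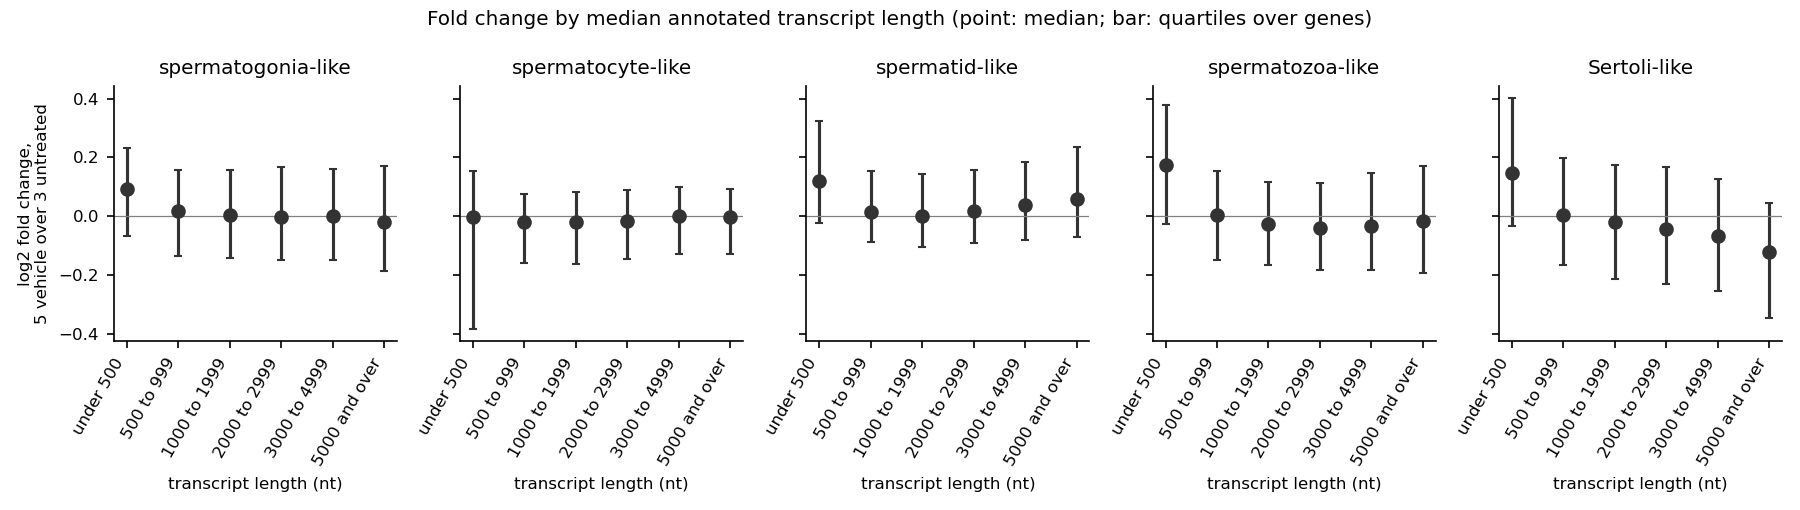
Log2 fold change of vehicle (5 libraries) against UC by length of transcript, in nucleotides, with 1 panel per stage, a point at the median over genes and a bar between the quartiles. The bin under 500 bases has medians of 0.17 in spermatozoa-like and 0.12 in spermatid-like cells, and the bin of the longest transcripts has its lowest median, −0.12, in Sertoli-like cells.

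Genes that define the sperm head gave no call. Prm1, a protamine that packs sperm DNA, was at 68098, 62464 and 56815 CPM in spermatozoa-like cells of UC and 66388 to 102790 CPM in the 5 vehicle libraries (log2 fold change 0.37, adjusted p = 0.297 by edgeR). Prm2 had a log2 fold change of 0.03, Prm3 of 0.17, and the transition protein genes Tnp1 and Tnp2 of 0.26 and 0.11. In spermatocyte-like cells, which should lack these mRNAs, the same 5 genes were lower in vehicle by 0.99 to 1.45 on the log2 scale (adjusted p = 0.864 for each by edgeR), and this rested on 1 library. Prm1 was at 8398 CPM in UC 1 and 1383 and 1751 CPM in UC 2 and 3, and without UC 1 the log2 fold changes of all 5 lay between 0.03 and 0.31. Genes of the acrosome and egg fusion and of the sperm tail had median log2 fold changes of −0.01 and −0.05 in spermatozoa-like cells, and −0.81 and −0.34 in spermatocyte-like cells, again with UC 1 in the fit. Synapsis and recombination genes had a median of 0.06 in spermatocyte-like cells. Markers of spermatozoa-like cells moved with UC 1: summed in spermatocyte-like cells, they were at 2594 CPM in UC 1, 542 and 620 CPM in UC 2 and 3, and 232 to 855 CPM in the vehicle libraries.

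In the stages with no call, the genes of smallest p in each direction are given as values. In spermatocyte-like cells these were mt-Nd4l, a mitochondrially encoded subunit of respiratory complex I, and Kpna2, a nuclear import receptor. The level of mt-Nd4l was 36.8, 36.3 and 41.5 CPM in UC and 56.8 to 62.5 CPM in the 5 vehicle libraries (log2 fold change 0.66, adjusted p = 0.56 by edgeR), and the library labelled VC-T 1 was at 79.7 CPM. Kpna2 was at 37.8, 39.9 and 46.1 CPM in UC and 60.7 to 83.3 CPM in vehicle (0.78, adjusted p = 0.672 by edgeR). Rps18 and Rabgef1, a regulator of endosomes, were the lower, with log2 fold changes of −0.42 and −0.36. Separation without overlap was seen for 1.41% of genes higher and 1.2% lower in vehicle in this stage.

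In spermatogonia-like cells Zfp286os, an antisense transcript at chr11:62761236-62765554 whose reads cannot be told from those of its partner if strand was not used in counting, was at 106, 188 and 176 CPM in UC and 54.4, 73.1, 51.0, 82.0 and 59.3 CPM in vehicle (log2 fold change −1.32, adjusted p = 0.0968 by edgeR), and DESeq2 called it. In this stage 1.39% of genes were higher and 1.19% lower in vehicle with no overlap. The library labelled VC-T 1 was at 204 CPM, on the side of UC. H1fx, a linker histone, had a log2 fold change of −0.59. In spermatid-like cells the genes of smallest p were 4930570D08Rik, an X-linked noncoding transcript, at 81.4, 80.3 and 53.2 CPM in UC and 123 to 172 CPM in vehicle (0.97, adjusted p = 0.193 by edgeR), Gm10076, Gm11273 (−0.64) and Kifap3, a kinesin adaptor (−0.33), with 2% of genes higher and 1.9% lower without overlap. In Sertoli-like cells they were Rpl35 (1.22), Gm10076, Kcnq5, a potassium channel (−1.29), and Camk1d, a calcium-dependent kinase (−0.71), each with an adjusted p of 1 by edgeR, where the shares without overlap were 0.848% and 0.491%.

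Hexim1, the readout gene of BET inhibition, did not differ beyond the spread in spermatocyte-like cells, at 6.98, 5.39 and 5.05 CPM in UC and 4.59 to 8.23 CPM in vehicle (log2 fold change 0.06, adjusted p = 1 by edgeR). None of the 19 fixed gene lists had a called member between 5 vehicle and UC libraries in any stage. Of all tested genes, 6 of 11277 (0.0532%) were called in spermatozoa-like cells and 0% in each other stage. The absence of calls in such short lists therefore cannot set them apart from other genes. The lists of steroid hormone synthesis, immediate early genes and BET proteins had no more than 2, 4 and 5 tested members in a stage. Cholesterol efflux and storage genes had medians between −0.12 and 0.02 over the 5 stages. The medians of all tested genes lay between −0.02 and 0.02.

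Glucocorticoid response genes, which rise with stress hormone in many tissues, had a median of 0.14 in spermatogonia-like cells with 6 of 8 positive, and −0.12 to 0.06 in the other 4 stages. Heat shock and chaperone genes had medians of −0.12 to 0.00, genes of the ER and integrated stress response −0.04 to 0.14, oxidative stress genes −0.11 to 0.02, and p53 and apoptosis genes −0.38 to 0.26. Of the inflammatory and interferon lists no more than 2 members were expressed highly enough to be tested in any stage. Sertoli hormone response genes had a median of −0.03 in Sertoli-like cells with 3 of 11 positive, and Rhox5, an androgen-driven homeobox gene, was the lowest at −0.77.

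The 13 mitochondrially encoded transcripts were the list with the most uniform sign. In spermatid-like cells 12 of 12 tested members were positive with a median of 0.47, and in spermatogonia-like cells 12 of 13 with a median of 0.17, with 0 members called. In spermatocyte- and spermatozoa-like cells the medians were 0.06 and 0.07. The mean mitochondrial percent per cell was 0.54, 0.67 and 0.90% in UC, 2.05 and 1.19% in VC-T 2 and 3 and 0.60, 1.04 and 0.56% in VC-R, so that VC-T 2, whose spermatid-like cells came mostly from 4 clusters, was also the highest here. Haemoglobin genes, which mark red blood cells, differed widely with no call: Hba-a1 had a log2 fold change of −4.24 in spermatocyte-like and 2.74 in spermatozoa-like cells, and summed blood markers in the latter were 27.9, 2.10 and 2.75 CPM in UC and 1.00 to 174 CPM in vehicle.

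The VC-R libraries were next compared with UC alone, since their ages differed least and they had gone 6 weeks without an injection. No gene was called in spermatogonia-like (0 of 8940, 0%), spermatocyte-like (0 of 12466, 0%), spermatid-like (0 of 12788, 0%) or Sertoli-like cells (0 of 5227, 0%). By edgeR 590, 207, 327 and 24 genes had an unadjusted p under 0.05, and DESeq2 called 0 in each. In spermatogonia-like cells 21 genes were called when VC-R 2 was left out, and 1 without VC-R 1 (Gm10260). In spermatozoa-like cells 3 of 11732 genes were called (0.0256%), all higher in VC-R: AY036118 (log2 fold change 1.65, adjusted p = 0.000331 by edgeR), Gm10076 (1.08, adjusted p = 0.000817) and 4930570D08Rik (1.03, adjusted p = 0.000331), an X-linked noncoding transcript at 448, 414 and 339 CPM in UC and 881, 877 and 698 CPM in VC-R, and 18 genes (0.153%) passed the adjusted p at any fold. DESeq2 called the same 3. Leaving out 1 library gave 1 to 6 genes, with 1 (AY036118) when VC-R 2 was left out, 2 (AY036118 and Gm10076) without UC 3, 5 without UC 2 and 6 without VC-R 1. Slc10a2, Gm10260, Rbfox3 and 1700020N15Rik had log2 fold changes of 0.93, 0.93, 0.88 and 0.97 in the same contrast, each past the adjusted p and under the 2-fold limit.

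Last, the 2 vehicle groups were compared with each other, without the library labelled VC-T 1, so VC-T stands on 2 libraries. In spermatogonia-like cells 133 of 8940 genes were called (1.49%), of which 125 were higher (1.4%) and 8 lower (0.0895%) in VC-R, and 164 (1.83%) passed at any fold. No gene was called in spermatocyte-like (0 of 12466), spermatid-like (0 of 12788), spermatozoa-like (0 of 11732) or Sertoli-like cells (0 of 5227, each 0%), where 392, 582, 993 and 10 genes had an unadjusted p under 0.05 by edgeR and DESeq2 called 0. The call is sensitive to single libraries: 4 genes were called in spermatogonia-like cells without VC-T 2 (Hist1h2ap, Bc1, Rbis and Hbb-bs), 36 without VC-R 3, 82 without VC-R 1 and 522 without VC-R 2. In spermatid-like cells 4 genes were called without VC-T 3 (Ube2t, Mphosph8, Rbm46 and Gm16759), and in spermatozoa-like cells 13 without VC-R 3, 8 without VC-T 2, 2 without UC 2 (Cdk8 and Gmnc), and 1 without UC 1 or UC 3 (Cdk8). Genes in brackets were named after their values were seen. DESeq2 called 92 genes, 90 of them among the 133. Age, 10 against 16 weeks, and time since the last injection differed together and cannot be told apart.

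Among the 125 genes higher in VC-R were 1 spermatocyte marker (Piwil1), 2 genes of the sperm tail list and 1 of the chaperone list (Hspa2), and 0 of the synapsis and recombination, acrosome or protamine lists. As 1.4% of all 8940 tested genes were called higher, counts this small in short lists cannot set the lists apart from each other or from other genes. Piwil1, which binds the piRNAs of pachytene spermatocytes, was at 28.7 and 69.4 CPM in VC-T 2 and 3 and 269, 88.8 and 275 CPM in VC-R (log2 fold change 2.05, adjusted p = 0.0026 by edgeR), with 100, 131 and 66.3 CPM in UC. Meikin, a regulator of meiotic kinetochores, was at 10.3 and 8.68 CPM in VC-T and 51.0, 22.2 and 46.6 CPM in VC-R (1.88, adjusted p = 0.0293 by edgeR). Hspa2, the chaperone of spermatocytes, was at 241 and 307 CPM in VC-T and 850, 529 and 517 CPM in VC-R (1.18). Of the sperm tail list, Rsph1, of the radial spoke, went from 330 and 529 CPM to 1374, 852 and 1135 CPM (1.35, adjusted p = 0.00124 by edgeR), and Ropn1l, of the fibrous sheath, from 318 and 390 CPM to 1129, 541 and 733 CPM (1.14). The testis cytochrome Cyct, the dynein heavy chain Dnah7a and the testis linker histone Hist1h1t were higher by 1.54, 1.71 and 1.46 on the log2 scale. Kcnk10, a potassium channel, was at 5.15 and 8.68 CPM in VC-T and 27.2, 34.2 and 63.5 CPM in VC-R (2.53 ± 0.50, adjusted p = 0.00512 by edgeR).

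Lower in VC-R were Tcea3, a transcription elongation factor, at 33.8 and 44.6 CPM in VC-T and 6.80, 8.54 and 16.9 CPM in VC-R (log2 fold change −1.96, adjusted p = 0.0143 by edgeR), and Gcat, an enzyme of threonine breakdown, at 62.5 and 63.2 CPM against 13.6, 30.7 and 21.2 CPM (−1.42). Pou3f1, a factor of spermatogonial stem cells, was lower by 1.42 on the log2 scale. Hist1h2ap, a replication-dependent histone, was at 708 and 960 CPM in VC-T, 143, 478 and 330 CPM in VC-R and 248, 255 and 269 CPM in UC (−1.37, adjusted p = 0.00363 by edgeR). Its UC mean lay below both vehicle means, whereas for 131 of the 133 called genes the UC mean lay between the VC-T and VC-R means. The 133 were picked for a gap between VC-T and VC-R, and the same count over all genes was not taken.

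**Figure D5:**
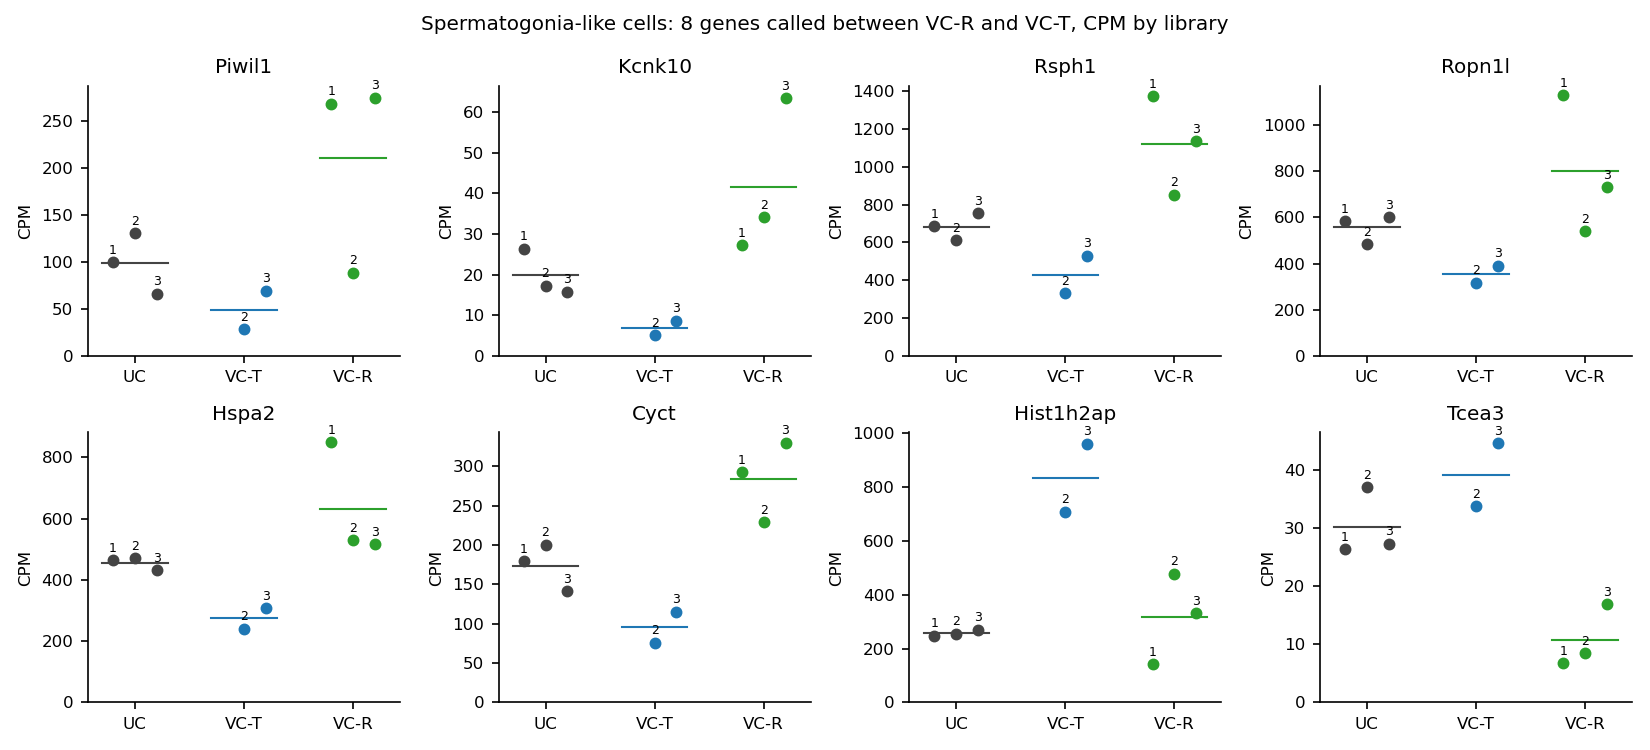
Levels in spermatogonia-like cells, in CPM on linear axes from 0, of 8 genes called between VC-R and VC-T, with 1 numbered point per library for UC, VC-T 2 and 3, and VC-R and a line at each group mean. The VC-T mean is the lowest for Piwil1 and Rsph1 and the highest for Tcea3 and Hist1h2ap, and the UC mean is the lowest for Hist1h2ap.

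Cell stage moved with these calls. Of the 125 genes higher in VC-R, 112 (89.6%) were higher in spermatocyte-like than in spermatogonia-like cells of the UC libraries, against 32.7% of all 8940 tested genes, and of the 8 lower genes 0 were. The spermatogonia markers had a median log2 fold change of −0.82 with 0 of 7 positive, and Kit, the receptor of differentiating spermatogonia, was the lowest at −0.98. The spermatocyte markers had a median of 0.56 with 6 of 6 positive, where all genes had a median of −0.02 with 48.7% positive. Summed in spermatogonia-like cells, the spermatogonia markers came to 1571, 1414 and 1387 CPM in UC, 1848 and 1764 CPM in VC-T 2 and 3, and 793, 1353 and 1217 CPM in VC-R, while the spermatocyte markers came to 4047, 3450 and 3202, 3339 and 3077, and 5713, 4133 and 4400 CPM. The stage held clusters 19 and 22. Cluster 22 was led by genes of meiotic entry and early meiosis such as Stra8 and Meiob, so the class named spermatogonia-like also held such cells, and in spermatocyte-like cells the spermatocyte markers summed to 2196 to 2960 CPM over the 9 libraries. In clusters 19 and 22 together, cluster 22 made up 50.0, 33.3 and 44.6% of cells in UC, 50.6 and 32.3% in VC-T 2 and 3, and 68.6, 42.3 and 45.2% in VC-R. When cells were drawn so that each library held the same number from each cluster, each held 79 cells and 5437 genes could be tested. Of these 30 were called, 26 of them among the 133, and all 120 of the 133 that could be tested kept their sign. The 133 were picked by the same contrast, and the drawn cells are part of the same cells of the same libraries. Kept signs and shared calls are therefore no separate test of the calls. In that fit the log2 fold change of Kcnk10 was 1.65 (adjusted p = 0.277 by edgeR), of Hspa2 0.76 (0.133), of Rsph1 0.98 (0.0569) and of Hist1h2ap −0.94 (0.0679), so these lost their calls. Those of Piwil1 (1.69), Dnah7a (1.72), Cyct (1.27), Hist1h1t (1.56) and Ropn1l (1.14) kept theirs. Meikin could not be tested there and was called in 3 of the 8 fits that left out 1 library. How far the make-up of the stage accounts for the calls was not tested further.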

How the data were processed

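Testis suspensions were sequenced with droplet 3' libraries (10x Genomics), 1 library per mouse, and all 15 libraries were pooled for sequencing. No batch of dissociation or droplet capture is labelled. The paper says that samples were processed and sequenced together, but also describes capture at each time point, so preparation may follow the group. The values are UMI counts per gene and cell as deposited by the authors in filtered Cell Ranger matrices on mm10; the matrix headers name version 7.0.0 and the submitters' processing notes version 3.0.0, and whether introns were counted is not given in the sources used here. The authors' removal of ambient RNA and of doublets came after these counts.

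Cells were filtered as stated above. Scrublet called 2 to 126 cells in each of the 9 libraries and 0 in 1 of the others, too few in most to have worked, so the 5.4% of cells with the highest scores were removed instead. Counts were scaled to 10000 per cell, and 2000 variable genes, 30 principal components, 20 neighbours and Leiden clustering at a resolution of 1.2 (seed 1, scanpy 1.11.5, leidenalg 0.10.2, Python 3.11.15) gave clusters, named from fixed markers. UMIs were summed per library and stage with at least 10 cells, and tested with edgeR 4.0.16 (R 4.3.3) by TMM, filterByExpr and the quasi-likelihood test. VC-R was compared with UC and with VC-T in a fit of 3 groups. DESeq2 1.42.0 was an alternative. Shares and median UMIs per cell were compared by exact permutation over libraries (scipy 1.17.1), adjusted over 5 stages. Intervals are exact binomial at 95%, the limit for a count of 0 is 3 counts, and both cover counting error only. Tests of 5 vehicle against 3 UC libraries were checked on simulated data. Genes changed by a log2 fold of 1.5 were recovered at 92.4% in spermatogonia-like, 78.5% in spermatocyte-like and 92.7% in spermatid-like cells. The figures were 98.9% in spermatozoa-like and 38.75% in Sertoli-like cells, so an absence of calls in Sertoli-like cells is weak. There were 1 to 6 false calls in a stage. Near copies were aligned with blastn 2.17.0 on GRCm38 with GENCODE vM21, which gave lengths for 32158 of 32285 gene identifiers.

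Named genes were, in each stage, up to 4 called genes in each direction whose libraries did not overlap, leaving out predicted and clone symbols. Where no gene was called, the 2 genes of smallest p in each direction were named. Called list members, the protamine and transition protein genes and Hexim1 were named too. Genes named outside this rule were chosen after their values were seen, as were the copy pairs, the ribosomal protein group and the length bins. The values of 1 fixed list are not reported here. The comparison and all lists were chosen with earlier results of these data known. Alternatives were other size factors, no filter on low counts, DESeq2, each library left out, the replicate number as a block, doublets kept, 5% ambient RNA subtracted, cells matched by cluster (at least 20 per cluster), 2000 UMIs per cell and stages from markers in each cell.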

Additional observations from a re-analysis of the deposited data

Results flagged for a closer look

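Of 66 groups of 5 or 6 libraries examined for 1 library far from the rest, 7 were marked, where chance marks about 1 in 20. The share of Sertoli-like cells was 9.29% in VC-T 2, with 3.38% next among the 6 vehicle libraries. The share of spermatid-like cells was 51.4% in VC-T 2, with 22.6% next among the 5 vehicle libraries. The median UMIs per spermatozoa-like cell was 8278 in VC-T 2, with 3337 next. Gm10076 in spermatid-like cells was at 385.5 CPM in VC-T 3, with 218.8 CPM next. Prm2 in spermatozoa-like cells was at 102430 CPM in VC-R 2, with 70398 CPM next. Tnp2 in spermatozoa-like cells was at 48388 CPM in VC-T 3, with 43982 CPM next. AY036118 in spermatozoa-like cells was at 117.2 CPM in VC-R 2, with 54.65 CPM next.

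The other result is a difference between the vehicle groups: 133 genes differed between VC-R and VC-T in spermatogonia-like cells by edgeR's direct contrast. The count was 4 without VC-T 2.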

How the results depend on the processing

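Differences in stage shares kept their direction under the alternatives run except when 1 library was left out. Leaving out 1 library in turn, the difference in the spermatogonia-like share over 6 vehicle libraries ranged from −0.22 to 1.95 percentage points and that in the spermatocyte-like share over 5 from −1.58 to 3.27. Differences in median UMIs per cell over 6 vehicle libraries ranged from −182 to 522 in spermatogonia-like, −1042 to 2584 in spermatocyte-like, −93.1 to 1453 in spermatozoa-like and −331 to 142 in Sertoli-like cells. Over 5 they ranged from −38.1 to 779 in spermatogonia-like, −206 to 3896 in spermatocyte-like, −1234 to 19.9 in spermatid-like, −93.1 to 1453 in spermatozoa-like and −331 to 142 in Sertoli-like cells. As a mean over cells, the difference for Sertoli-like cells turned to 9.35 UMIs. None of these differences passed its exact permutation test with all libraries in. The Sertoli-like sums rest on 24 to 333 cells per library and the spermatogonia-like sums on 80 to 387.

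Counts of called genes moved as follows, and the cause was not tested. With no filter on low counts there were 4 genes in spermatogonia-like cells over 6 vehicle libraries (Gm10260, Gm10076, Gm41335 and Hbb-bs). Over 5 vehicle libraries this setting called 6 in spermatogonia-like, 7 in spermatid-like and 23 in spermatozoa-like cells, the last 18 higher and 5 lower in vehicle. For VC-R against UC it called 1 (Zfp286os), 3 (1700020N15Rik, Hba-a1 and Hbb-bs) and 11 in the same stages, and for VC-R against VC-T 10 in spermatid-like and 18 in spermatozoa-like cells. DESeq2 called 1 gene in spermatocyte-like and 1 in spermatid-like cells over 6 vehicle libraries, and over 5 it called 1 in spermatogonia-like, 2 in spermatocyte-like and 3 in spermatid-like cells. With clusters matched, the counts over 5 vehicle libraries were 1 in spermatogonia-like (Gm10260), 3 in spermatocyte-like (Gm10260, Gm10076 and Gm34662), 6 in spermatid-like and 9 in spermatozoa-like cells (7 higher and 2, Cfap65 and Smurf2, lower in vehicle), those for VC-R against UC 4 in spermatid-like (Gm16677, Gm10076, Gm6812 and 1700020N15Rik) and 5 in spermatozoa-like cells (Slc10a2, 4930520P13Rik, Gm10260, Gm10076 and AY036118), and that for VC-R against VC-T 30 in spermatogonia-like cells. With 5% ambient RNA subtracted, 3 genes were called in spermatozoa-like cells over 5 vehicle libraries (Slc10a2, Gm10260 and Gm10076). For VC-R against VC-T in spermatozoa-like cells, other size factors gave 2 genes and doublets kept gave 2, Cdk8 and Gmnc in both.

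Leaving out 1 library in turn gave 0 to 4 genes in spermatogonia-like, 0 to 4 in spermatid-like and 2 to 27 in spermatozoa-like cells over 5 vehicle libraries. For VC-R against UC it gave 0 to 21 genes in spermatogonia-like and 1 to 6 in spermatozoa-like cells. For VC-R against VC-T it gave 4 to 522 in spermatogonia-like, 0 to 4 in spermatid-like and 0 to 13 in spermatozoa-like cells.

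In the germ cell stages deviations of same-numbered libraries correlated between −0.362 and 0.291, within the −0.515 to 0.515 of libraries of different numbers. In Sertoli-like cells same-numbered libraries ranged from −0.558 to 0.632 (median 0.508) and the others from −0.664 to 0.621 (median −0.406). Only VC-T 2 and 3 entered from their group, so their deviations mirror each other. The check therefore cannot settle whether the replicate numbers pair the libraries. The fit with the replicate block called 1 gene in spermatogonia-like (Zfp286os), 7 in spermatozoa-like and 2 in Sertoli-like cells (Rpl35 and Gm10076) over 5 vehicle libraries. In Sertoli-like cells the unadjusted p by edgeR was under 0.05 for 158 genes with the block and for 18 without it. The fit with the block called 2 in spermatogonia-like cells for VC-R against UC (Zfp286os and Gm10076), and 106 in spermatogonia-like and 3 in spermatozoa-like cells (Cdk8, Gmnc and Cmss1) for VC-R against VC-T.

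Of single genes, those that changed sign were uncalled ones. With clusters matched, log2 fold changes in spermatogonia-like cells were −0.060 for Prm3 and −0.046 for Tnp1, and in spermatocyte-like cells 0.23 for Prm1, 0.046 for Prm3, 0.075 for Tnp1, 0.12 for Tnp2 and −0.30 for Hexim1. Tnp1 was at −0.049 in spermatogonia-like cells with 5% ambient RNA subtracted, and in Sertoli-like cells at 0.14 with the replicate block and 0.073 with doublets kept. Leaving out 1 library, the ranges in spermatogonia-like cells were −0.026 to 0.29 for Prm1, −0.30 to 0.074 for Prm2, −0.17 to 0.22 for Prm3, −0.22 to 0.19 for Tnp1 and −0.054 to 0.38 for Tnp2. In spermatocyte-like cells they were −1.41 to 0.31 for Prm1, −1.77 to 0.029 for Prm2, −1.497 to 0.30 for Prm3, −1.71 to 0.22 for Tnp1, −1.93 to 0.27 for Tnp2 and −0.051 to 0.21 for Hexim1. In spermatozoa-like cells Prm2 ranged from −0.10 to 0.083. In Sertoli-like cells the ranges were −0.082 to 0.50 for Prm2, −0.016 to 0.64 for Prm3, −0.45 to 0.48 for Tnp1, −0.67 to 0.26 for Tnp2 and −0.074 to 0.10 for Rps18.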
